A study of Mus musculus with 4 samples.

Results

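Regulatory T cells (Treg cells) carrying the transcript of Foxp3 were described in single-cell RNA libraries of mouse liver non-parenchymal cells, the fraction of the liver that is left when hepatocytes are largely removed. Counts of a few genes chose the cells. A cell had to hold at least 2 UMIs (unique molecular identifiers, each standing for a captured transcript) of Cd3d, Cd3e and Cd3g together, at least 1 UMI of Foxp3, and 0 UMIs of Cd8a, Cd8b1, Trdc and Cd79a with at most 1 of Clec4f. The genes held at or near 0 mark CD8 T cells, gamma-delta T cells, B cells and Kupffer cells, which were thereby left out. The rule found 96 Treg cells among 32150 kept cells, or 0.299%. They came from 12 cells of the HFD_EXE library, 56 of the HFD_sed library and 28 of the S library. Because Foxp3 and the other genes of the rule were selected on, their levels are a description and were not tested.

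Each group is 1 library of liver from C57BL/6J mice aged 30 weeks. HFD_EXE and HFD_sed carry the high fat diet (HFD) in their names, with EXE standing in the labels where the series names exercise, and S carries neither. The labels do not spell out EXE, sed or S, and they do not give the diet's composition, the exercise, the sex of the mice or the number of mice behind a library. A further library, E, was not analysed here beyond its barcodes. With 1 library per group no difference between groups can be tested. Values from the 3 libraries are therefore set side by side with exact 95% intervals that cover counting error only, and a difference between libraries cannot be told apart from a difference between their mice.

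Treg cells restrain other lymphocytes. Foxp3 is the transcription factor that fixes their identity, and it acts with Ikzf2 (Helios), a factor common in Treg cells that arise in the thymus. They suppress through the surface receptor Ctla4, which removes costimulatory ligands from antigen-presenting cells, through uptake of interleukin-2 by Il2ra and Il2rb, and through soluble products. In tissues, some Treg cells carry Il1rl1 (ST2), the receptor for interleukin-33, and make Areg (amphiregulin), a growth factor of tissue repair. Others keep Ccr7 and S1pr1, which let T cells circulate through lymph nodes.

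The label held against markers that the rule did not use. Ikzf2 had at least 1 UMI in 10 of 12 Treg cells of HFD_EXE, 53 of 56 of HFD_sed and 23 of 28 of S. Ctla4 was found in 9, 51 and 23 of them. After each cell was thinned to 1500 UMIs, which leaves out 2 shallower HFD_EXE cells, Ikzf2 was found in 9 of 10, 43 of 56 and 21 of 28 Treg cells, and Ctla4 in 4, 36 and 16. In B cells, which should lack Ctla4, the thinned share was 0.563%, 1.35% and 1.04%. Of the 6 markers Ctla4, Il2ra, Ikzf2, Tnfrsf18, Tnfrsf4 and Izumo1r, at least 3 were present in 8, 53 and 22 Treg cells. Among Foxp3-negative CD4 T cells, defined by the same rule but with 0 Foxp3 UMIs and at least 1 Cd4 UMI, 15.3%, 37.9% and 24.9% of cells reached 3 markers. Cd4 itself, which the rule did not ask for, had a UMI in only 6, 30 and 22 Treg cells.

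The matrices held 11280, 11752 and 11660 barcodes and 60901242, 63456399 and 84666844 UMIs in HFD_EXE, HFD_sed and S. The labels state 5000 to 6000 cells captured for each sample, which is below the number of barcodes in any matrix. The Treg cells had a median of 2945.5, 4039.5 and 6027 UMIs and summed to 54682, 290123 and 193669 UMIs. A single cell gave 29.9% of all Treg UMIs in HFD_EXE, against 5.18% in HFD_sed and 8.96% in S. Library pairs, E included, shared 29 to 46 barcodes. Pairs of the 3 libraries analysed shared 30 to 43, and 0 of the Treg barcodes were among those. The S library stood apart in Clec4f, a Kupffer cell gene: 27.7% of its T cells had at least 2 Clec4f UMIs, against 4.17% in HFD_EXE and 2.77% in HFD_sed. Through this gene 18 Foxp3-bearing T cells of S were left out, against 1 in HFD_EXE and 2 in HFD_sed.

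Treg cells made up a small share of liver T cells in all 3 libraries. They were 1.39% (0.72 to 2.42) of T cells in HFD_EXE, 1.80% (1.37 to 2.34) in HFD_sed and 2.26% (1.51 to 3.25) in S, where T cells are all kept cells with at least 2 Cd3 UMIs. These intervals overlap. As a share of Treg cells plus Foxp3-negative CD4 T cells they were 6.59% (3.45 to 11.2) in HFD_EXE, 12.5% (9.56 to 15.9) in HFD_sed and 12.0% (8.14 to 16.9) in S. HFD_EXE was the lowest by either measure, but its interval overlaps both others. With other denominators it lay apart from HFD_sed: 0.115% (0.0593 to 0.2002) against 0.506% (0.382 to 0.657) of kept cells, and 2.37% (1.23 to 4.10) against 6.45% (4.91 to 8.30) of cells of the gate with or without Foxp3 and Cd4. In S these shares were 0.264% (0.175 to 0.381) and 5.36% (3.59 to 7.66). Among cells thinned to 1500 UMIs, the share of T cells that met the rule was 0.166% in HFD_EXE, 1.32% in HFD_sed and 1.64% in S. With a UMI of both Il2ra and Ctla4 in place of Foxp3, HFD_EXE no longer had the lowest share of T cells. The shares were 2.20% in HFD_EXE, 1.64% in HFD_sed and 2.42% in S. Of such cells plus the other cells of the gate with a Cd4 UMI, HFD_EXE was still the lowest, at 10%, 11.5% and 12.4%. With no exclusion of cells carrying other lineages' genes the S share was 4.03%.

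Foxp3 was at 384 CPM (counts per 1000000 UMIs of the same cells) in the Treg cells of HFD_EXE, 520 in HFD_sed and 542 in S. Its median was 1, 2 and 3 UMIs per cell, with a highest cell of 4, 10 and 13. At the edge of the rule lay 7, 19 and 7 cells with exactly 1 Foxp3 UMI and 3, 4 and 2 cells with exactly 2 Cd3 UMIs. Just outside it lay 0, 5 and 0 Foxp3-bearing cells with 1 Cd3 UMI. As a measure of free RNA, Foxp3 was found in 0%, 0.101% and 0.389% of B cells and in 0%, 0.339% and 0.289% of Kupffer cells. The 0 of 541 B cells in HFD_EXE allows a share of up to 0.555%. The plot of shares and of Foxp3 UMIs per cell shows these values.

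**Figure D1:**
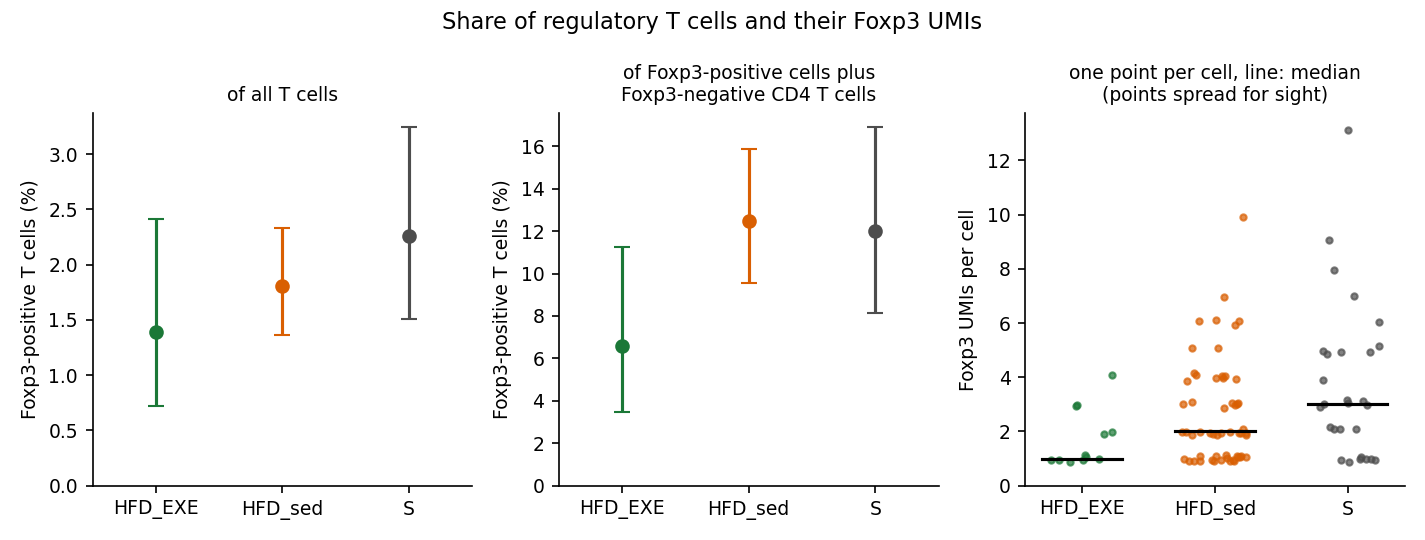
Treg cells as a percentage of T cells and of Treg cells plus Foxp3-negative CD4 T cells in each library, and Foxp3 UMIs in each Treg cell. Points of the percentages carry exact 95% binomial intervals, and a line marks the median UMIs. The intervals of the 3 libraries overlap, and the median Foxp3 UMIs are 1 in HFD_EXE, 2 in HFD_sed and 3 in S.

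The only replicated comparison the data allow is between the 2 cell groups within each library. Counts were summed over Treg cells and over Foxp3-negative CD4 T cells in each of the 3 libraries. These 6 sums were tested by edgeR's quasi-likelihood test with the library as a term, so that libraries of different diet and exercise serve as the replicates. Of 7455 genes tested, 60 (0.805%) rose and 68 (0.912%) fell in Treg cells at a Benjamini-Hochberg adjusted p under 0.05, and 754 genes had an unadjusted p under 0.05. Of the 128 that passed, 126 had the same direction in all 3 libraries. The test was run on these same libraries and favours such genes, so this agreement is no separate support. Without the S library 34 rose and 45 fell, without HFD_sed 90 rose and 95 fell, and with no library term 15 rose and 17 fell. The median log2 difference over all genes was −0.03. All log2 differences below are Treg over Foxp3-negative CD4 T cells.

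Of 17 genes tested that are known for high levels in Treg cells, 9 rose and 0 fell, with a median log2 difference of 1.90. Ikzf2 was at 1481, 1910 and 1497 CPM in Treg cells of HFD_EXE, HFD_sed and S, against 56.1, 275 and 73.5 CPM in Foxp3-negative CD4 T cells. The groups did not overlap, and the log2 difference was 3.81 ± 0.32 (SE, adjusted p = 2.3e-05). Ikzf4 (Eos), a sister factor of Ikzf2, rose by 3.38 ± 0.48 (adjusted p = 0.00113) and was found in 30 Treg cells. Ctla4 was at 823, 1155 and 666 CPM in Treg cells, against 117, 419 and 92.0 CPM in Foxp3-negative CD4 T cells. Its log2 difference was 2.24 ± 0.28 (adjusted p = 0.000458).

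Receptors of the tumour necrosis factor family, which carry costimulatory signals, were among the same genes. Tnfrsf4 (OX40) was at 238, 855 and 258 CPM in Treg cells of HFD_EXE, HFD_sed and S, against 28.6, 205 and 19.2 CPM in Foxp3-negative CD4 T cells. It rose by 2.72 ± 0.33 (adjusted p = 0.000314), and Tnfrsf9 (4-1BB) by 2.84 ± 0.43 (adjusted p = 0.00208). Tnfrsf18 (GITR) did not pass, at 1.07 (adjusted p = 0.099): it was at 146, 586 and 305 CPM in Treg cells and 150, 206 and 116 CPM in the other CD4 T cells, so that the HFD_EXE values were nearly equal. Il2ra (CD25), the high-affinity chain of the interleukin-2 receptor, missed the threshold at 1.41 (adjusted p = 0.061), with 73.2, 148 and 155 CPM against 78.5, 31.6 and 56.3 CPM. It had a UMI in only 3, 24 and 11 Treg cells. Capg, an actin-capping protein, rose by 2.43 ± 0.39 (adjusted p = 0.0036). Dusp4, a phosphatase of MAP kinases, rose by 2.99 ± 0.55 (adjusted p = 0.00993). Nt5e (CD73), which makes adenosine, rose by 1.90 (adjusted p = 0.019), and Lrrc32 (GARP), which holds latent TGF-β on the cell surface, by 2.01 (adjusted p = 0.0384).

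Among genes that rose, the largest differences were in genes of tissue and effector Treg cells, and they rested on a minority of cells. Il1rl1 was at 18.3, 96.5 and 186 CPM in Treg cells of HFD_EXE, HFD_sed and S, against 0, 2.34 and 2.85 CPM in Foxp3-negative CD4 T cells. It rose by 5.63 ± 0.52 (adjusted p = 4.88e-05), yet only 14 of the 96 Treg cells had a UMI of it: 1, 4 and 9 cells. Areg was found in 12 Treg cells and rose by 5.08 ± 0.68 (adjusted p = 0.000794). Gata3 and Rora, transcription factors linked to this state, were at 0.67 (adjusted p = 0.32) and 1.07 (adjusted p = 0.11) and did not pass. In all, 2 of 5 repair genes tested rose and 0 fell.

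Among 12 effector genes tested, Itgae, Icos and Tnfrsf1b rose and 0 fell. Itgae (CD103), an integrin that binds E-cadherin on epithelium, was found in 1, 16 and 12 Treg cells at 18.3, 99.96 and 145 CPM, against 0, 9.35 and 0.713 CPM in Foxp3-negative CD4 T cells, and rose by 4.57 ± 0.65 (adjusted p = 0.00113). Icos, a costimulatory receptor, rose by 1.34 ± 0.26 (adjusted p = 0.014). Of 10 mediators of suppression tested, Ctla4, Nt5e and Lgals1 (galectin-1) rose. Il10, a suppressive cytokine, was found in 0, 4 and 0 Treg cells, and Tgfb1 was at 110, 99.96 and 124 CPM in Treg cells against 103, 126 and 150 CPM in the other CD4 T cells. Outside the lists, Ncmap rose by 4.28 (16 Treg cells), Lclat1 by 3.04 (31 cells) and Myo1e, a myosin, by 2.80 (26 cells). The calls of Icos, Nt5e, Lgals1 and Tnfrsf1b were lost without the S library, those of Tnfrsf1b, Lrrc32 and Myo1e without HFD_sed, and that of Icos without HFD_EXE.

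Several genes of T cell survival, effector function and natural killer programmes fell. Bcl2, a survival factor, was at 110, 58.6 and 72.3 CPM in Treg cells of HFD_EXE, HFD_sed and S, against 794, 316 and 374 CPM in Foxp3-negative CD4 T cells. It fell by 2.59 (adjusted p = 0.00012). Satb1, a chromatin organiser, fell by 2.31 (adjusted p = 0.000365). These were the 2 genes that fell among 12 of resting T cells. Of 12 apoptosis genes tested, Bcl2, Fasl, Bcl2l11 and Bcl2a1d fell and 0 rose. The calls of Bcl2l11 and Bcl2a1d were lost without the S library, and that of Bcl2a1d also without HFD_sed. Ifng, the cytokine of type 1 responses, was found in 0, 6 and 0 Treg cells and fell by 3.75 on the log2 scale. Cxcr6, a chemokine receptor of liver-resident lymphocytes, fell by 2.90 (adjusted p = 0.00166), and Fasl, a death ligand, by 4.76. Klrk1, Klrb1c and Cd160, receptors found on natural killer cells, had 0 UMIs in all 96 Treg cells and were at least 25.5-fold, 17.4-fold and 11.6-fold lower, taking 3 counts over the group as the floor. By the same measure Klrc2, Mctp2, Hspa1a, Ifitm10 and Tnfsf14 were at least 4.38-fold to 7.45-fold lower, though all of them but Klrc2 lost their call without the S library, Mctp2, Ifitm10 and Tnfsf14 without HFD_sed, and Tnfsf14 without HFD_EXE. Pde3b, a phosphodiesterase, fell by 5.27 and the chemokine gene Xcl1 by 5.22, each with a UMI in 2 Treg cells. The Foxp3-negative gate also holds cells with the natural killer T genes Klrb1c or Zbtb16. Leaving those cells out took it from 170 to 95 cells in HFD_EXE, 393 to 374 in HFD_sed and 205 to 115 in S. Of 5836 genes then tested, 47 rose and 46 fell. Of 43 called genes followed in this setting, 5 lost their call, Lgals1 among them, and 14 were not tested. Klrb1c, Cd160, Klrc2, Il1rl1, Areg and Itgae were among the 14, so the setting says nothing about them.

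A further gene that rose was Ighm, the immunoglobulin heavy chain of B cells. It was at 896, 620 and 1059 CPM in Treg cells of HFD_EXE, HFD_sed and S, against 176, 158 and 141 CPM in Foxp3-negative CD4 T cells, and rose by 2.32 ± 0.25 (adjusted p = 0.00012). It had a UMI in 9, 44 and 24 Treg cells. Cd79a was at 0 by the rule. Ms4a1 and Pax5, other defining genes of B cells, had 0 UMIs in the Treg cells of HFD_EXE and HFD_sed, and Ms4a1 had 0 in S too. Ifi27l2a, an interferon-induced gene, rose by 1.69 ± 0.22 (adjusted p = 0.000782) and was the 1 interferon gene of 15 tested to do so. No gene of the lists for T cell receptor signalling (14 tested), immediate early response (12), glycolysis (15), lipid handling (15) or cell cycle (14) passed.

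**Figure D2:**
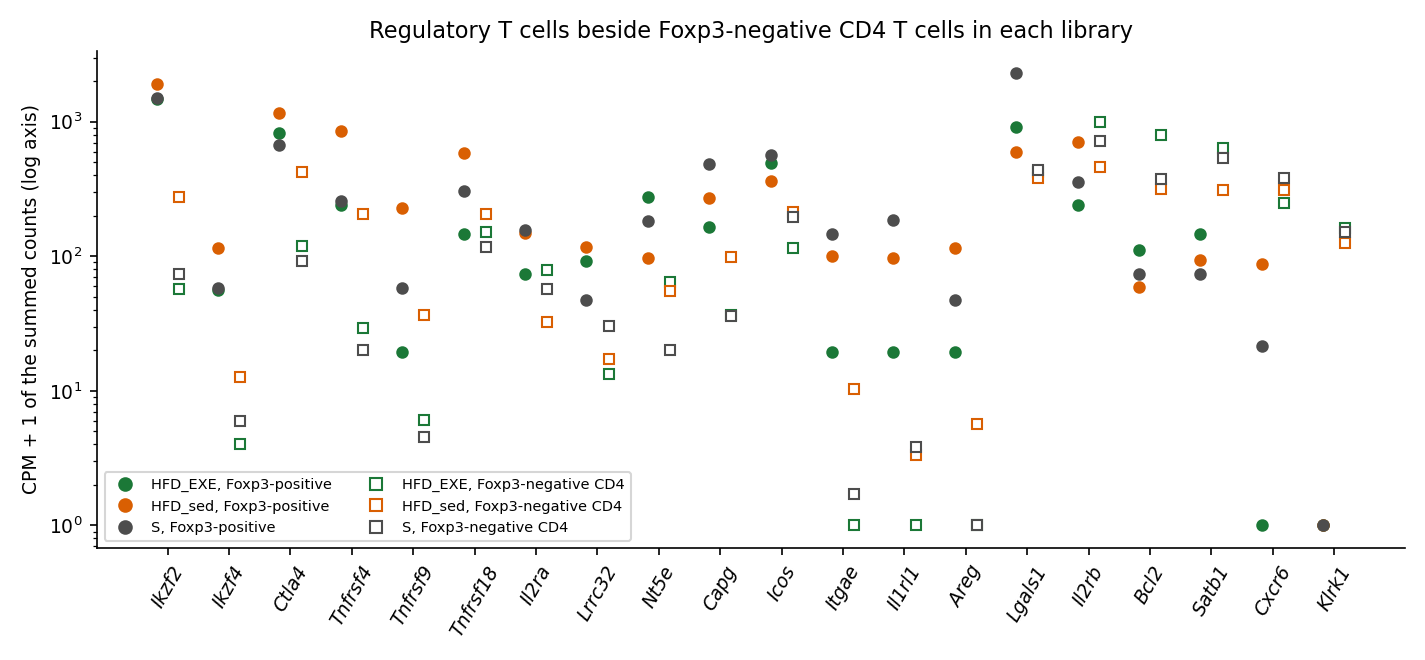
Level of chosen genes in Treg cells (filled circles) and in Foxp3-negative CD4 T cells (open squares) of each library, as CPM + 1 on a log axis. For Ikzf2, Ctla4 and Tnfrsf4 the filled circles lie above the open squares in all 3 libraries, and for Bcl2 they lie below.

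Other cell types' RNA was present in some Treg cells and is given here because it moves with the comparisons between libraries. At least 20 UMIs of 10 endothelial genes were found in 0, 5 and 2 Treg cells of HFD_EXE, HFD_sed and S, with highest cells of 11, 127 and 191. At least 20 UMIs of 14 myeloid genes were found in 0, 1 and 0, and of 14 hepatocyte genes in 1, 0 and 0, that HFD_EXE cell holding 146. In all, 9 of the 96 Treg cells carried such RNA. The summed endothelial level was 823, 1951 and 1554 CPM, the myeloid level 421, 1772 and 997 CPM, and the hepatocyte level 3328, 341 and 1120 CPM. At least 40 UMIs of 14 cell cycle genes were found in 1, 2 and 1 cells, at 106 UMIs in HFD_EXE, 46 and 48 in HFD_sed and 139 in S. Every other Treg cell had at most 2, 15 and 16.

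**Figure D3:**
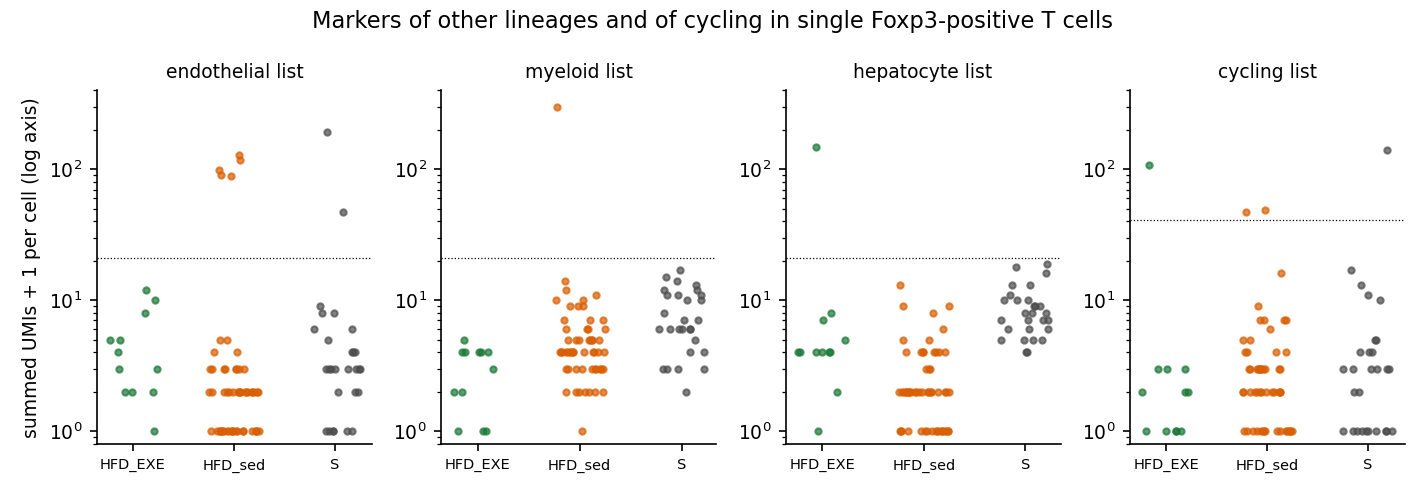
UMIs of gene lists for endothelial, myeloid, hepatocyte and cycling cells in each Treg cell, as UMIs + 1 on a log axis, by library. The dotted line marks 20 UMIs (40 for cycling), which 9 Treg cells reach for endothelial, myeloid or hepatocyte genes and 4 reach for cycling genes.

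Between libraries a gene is called higher or lower past the fold where the ratio of CPM was at least 1.5, its 95% interval left out 1 and both libraries together held at least 20 UMIs. A call is said to hold where it was also met without the Treg cell with most UMIs of that gene, without the 9 cells of mixed RNA and without the 4 cycling cells. That second condition was chosen after the data had been seen. No p-value goes with either.

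In Treg cells, Ccl5, Fgl2 and costimulatory receptors such as Tnfrsf4 were higher, and S1pr1, Klrg1 and Lgals1 were lower, in HFD_sed than in S. Of 4079 genes measured, 12.1% were higher and 6.55% lower past the fold, and 6.4% and 3.16% held. The median over all genes was 0.14 on the log2 scale. Ccl5, a chemokine usually made by CD8 and natural killer cells, was at 1748 CPM in 38 of 56 Treg cells of HFD_sed, against 5.16 CPM in 1 of 28 of S. That is a log2 ratio of 8.40 (5.92 to 13.7). Thinned to 1500 UMIs, 33 of 56 and 0 of 28 Treg cells had it. Free Ccl5 differed as well: 15.01% of thinned B cells and 14.0% of thinned sinusoidal endothelial cells of HFD_sed had a UMI, against 1.83% and 2.79% in S. Ccl5 in Foxp3-negative CD4 T cells was at 2090 CPM in HFD_sed and 1685 CPM in S. Nkg7, a granule protein of killer cells, was at 159 CPM in 19 Treg cells of HFD_sed and 5.16 CPM in 1 of S. Both calls held. Over all kept cells Nkg7 was at 252 CPM in HFD_sed, above its Treg level, and 112 CPM in S. Foxp3-negative CD4 T cells had it in the opposite order, at 344 and 650 CPM.

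Fgl2, a secreted mediator of suppression, was at 500 CPM in 34 Treg cells of HFD_sed, against 56.8 CPM in 6 of S, a log2 ratio of 3.14 (2.26 to 4.17). Its Foxp3-negative CD4 T cell level was 115 CPM in HFD_sed and 202 CPM in S, the opposite order. Thinned, 26 of 56 and 1 of 28 Treg cells had Fgl2, and 2.80% and 1.83% of B cells did. Id2, an inhibitor of E-protein transcription factors, was at 620 CPM against 114 CPM, with 848 CPM against 1065 CPM in Foxp3-negative CD4 T cells. The inhibitory receptor Pdcd1 (PD-1) was at 138 CPM in HFD_sed and 10.3 CPM in S, a log2 ratio of 3.74 (1.79 to 6.83). It showed the same order in Foxp3-negative CD4 T cells, at 85.9 and 9.98 CPM. Itgav, an integrin chain that activates latent TGF-β, was at 314 CPM in HFD_sed and 31.0 CPM in S, and its call held.

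Of 16 Treg genes measured in this pair, 9 were higher past the fold and 2 lower, and the median was 0.99 on the log2 scale. Among the 9, 7 held: Ctla4, Entpd1, Il2rb, Izumo1r, Tnfrsf18, Tnfrsf4 and Tnfrsf9. Tnfrsf4 was at 855 CPM in HFD_sed and 258 CPM in S, a log2 ratio of 1.73 (1.28 to 2.20), and was found in 39 of 56 and 8 of 28 thinned cells. Ctla4 was at 1155 and 666 CPM, a log2 ratio of 0.79. Ikzf2, at 1910 and 1497 CPM, was not past the fold, and Capg was lower, at 272 and 485 CPM. The same genes had a median of 1.10 in Foxp3-negative CD4 T cells, where Tnfrsf4 was at 205 CPM in HFD_sed and 19.2 CPM in S. Among 11 genes of the interleukin-2 receptor and its targets (median 0.66), 6 were higher and 0 lower, of which Cish, Il2rb and Socs1 held. Among 12 early response genes of the T cell receptor (median 0.73), 5 were higher and 1 lower. Their median in Foxp3-negative CD4 T cells was 0.79, against 0.13 over all genes, so the shift was not particular to Treg cells. Leaving out cells with at least 2 UMIs of B cell (Ighm included), neutrophil or endothelial genes gave these genes a Treg median of −0.0892. That left only 10 Treg cells of HFD_sed and 3 of S. Among 8 heat shock genes (median 0.76), which are also known to respond to tissue dissociation, 5 were higher.

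Genes lower in HFD_sed than in S included some of circulating and some of tissue Treg cells. S1pr1, the receptor that guides T cells out of lymph nodes, was at 203 CPM in 15 cells of HFD_sed, against 583 CPM in all 28 cells of S, a log2 ratio of −1.52, and thinned in 9 of 56 and 16 of 28. S1pr1 in Foxp3-negative CD4 T cells was at 219 and 237 CPM. Lef1, a factor of resting T cells, was at 65.5 CPM in HFD_sed and 176 CPM in S, and both calls held. Klrg1, a receptor of effector cells, was at 117 CPM in HFD_sed and 289 CPM in S, and Rora at 272 and 558 CPM. Il1rl1 was at 96.5 CPM in 4 cells and 186 CPM in 9 cells, a call that did not hold. Lgals1 was at 593 CPM in HFD_sed and 2287 CPM in S, and Crip1 (a LIM-domain protein) at 1034 and 4523 CPM. In Foxp3-negative CD4 T cells Lgals1 was at 381 and 434 CPM and Crip1 at 984 and 1058 CPM.

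Homing and interferon genes were also on both sides. Cxcr3, a chemokine receptor that follows interferon-induced ligands, was at 169 CPM in 25 Treg cells of HFD_sed, against 36.1 CPM in 3 of S, and thinned in 11 of 56 and 0 of 28. In Foxp3-negative CD4 T cells it was at 163 and 113 CPM. S1pr4, a receptor for the same lipid as S1pr1, was at 107 CPM in HFD_sed and 356 CPM in S, with 64.3 and 64.9 CPM in Foxp3-negative CD4 T cells. Both calls held. Of 16 homing genes measured, 5 were higher and 6 lower. Of 12 interferon genes, 4 were higher and 1 lower. Bst2 and Isg15 were among the 3 higher calls that held, and the lower one, Ifi27l2a, did not hold.

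Genes of tissue and effector Treg cells were spread over many of the HFD_sed and S cells. A UMI of Il1rl1, Klrg1, Itgae or Areg was found in 2 of 12 Treg cells of HFD_EXE, 29 of 56 of HFD_sed and 17 of 28 of S, against 2.35%, 6.11% and 4.88% of Foxp3-negative CD4 T cells. The S cells were the deepest, at a median of 6027 UMIs, and these counts were not thinned, so no order between libraries is read from them.

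Some of the largest ratios of this pair rested on single cells. Il17a and Il17f, cytokines of type 17 helper cells, had 83 and 23 UMIs in 1 Treg cell of S, which held 11979 UMIs in all, 1 UMI of Foxp3 and 0 of Ikzf2. The histone genes H2ac24, H1f5 and H2ac8 and the gut-homing receptor Ccr9 were lower in HFD_sed by ratios that did not hold. Esm1, an endothelial gene, was higher in HFD_sed, and that call did not hold either.

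**Figure D4:**
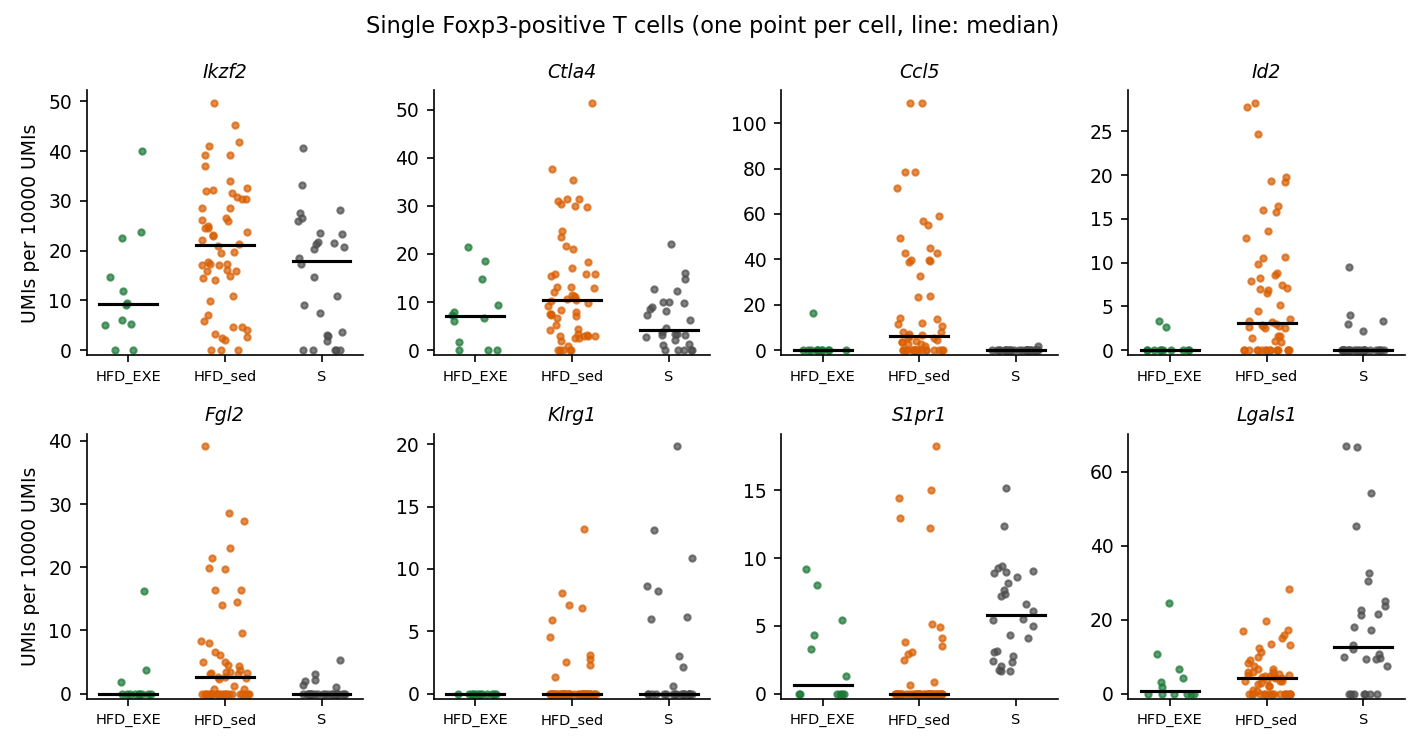
UMIs of chosen genes per 10000 UMIs in each Treg cell (points, with the median as a line), by library. The Ccl5 and Fgl2 UMIs of HFD_sed were spread over 38 and 34 of its 56 cells, against 1 and 6 of 28 in S, while S1pr1 was found in all 28 cells of S and 15 of HFD_sed.

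The HFD_EXE library had 12 Treg cells, so its comparisons are the least precise. Over HFD_sed, 5.48% of 3158 genes were higher and 6.33% lower past the fold, and 1.36% and 2.25% held. The median over all genes was −0.14. This pair uses the same HFD_sed cells as the one above. Ccl5, Fgl2 and Id2 were lower in HFD_EXE. Ccl5 was at 36.6 CPM in 1 of 12 Treg cells of HFD_EXE, against 1748 CPM in 38 of 56 of HFD_sed, a log2 ratio of −5.58 (−8.63 to −3.72), and thinned in 0 of 10 and 33 of 56. In Foxp3-negative CD4 T cells it was at 2059 and 2090 CPM. Fgl2 was at 73.2 CPM in 3 cells of HFD_EXE and 500 CPM in 34 of HFD_sed, a log2 ratio of −2.77 (−4.67 to −1.39), while in Foxp3-negative CD4 T cells it was at 317 and 115 CPM. Id2 was at 73.2 CPM in HFD_EXE and 620 CPM in HFD_sed, a log2 ratio of −3.08 (−4.98 to −1.70). These calls held.

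Of 16 Treg genes measured in this pair, 2 were higher and 5 lower, and the median was −0.72 on the log2 scale, against −0.87 in Foxp3-negative CD4 T cells. Tnfrsf4 was at 238 CPM in HFD_EXE and 855 CPM in HFD_sed, a log2 ratio of −1.85 (−2.78 to −1.05). Tnfrsf9, Tnfrsf18 and Il2rb were lower and held as well. Izumo1r (folate receptor 4) was higher, at 384 CPM in HFD_EXE and 193 CPM in HFD_sed. Among 11 genes of resting T cells, 5 were higher and 0 lower, and their median was 0.91. In Foxp3-negative CD4 T cells 5 were higher and 0 lower as well, with a median of 0.06 against −0.12 over all genes. The share of all genes called in those cells was not counted. Tcf7 (TCF-1) was at 402 CPM in 7 of 12 Treg cells of HFD_EXE and 128 CPM in 9 of 56 of HFD_sed, a log2 ratio of 1.66 (0.83 to 2.46), and thinned in 4 of 10 and 6 of 56. Lef1 at 2.07 (0.99 to 3.12) and Il7r, the interleukin-7 receptor, at 0.92 (0.40 to 1.42) also held. Ccr7 did not, since all 13 of its UMIs in HFD_EXE came from 1 cell. Trat1, an adaptor of the T cell receptor complex, was at 347 CPM in 7 cells of HFD_EXE and 17.2 CPM in 5 of HFD_sed, and this call held.

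The comparison of HFD_EXE and HFD_sed also carried the RNA of other cells. Pck1, Car3 and Akr1c6, enzymes of hepatocytes, were higher in HFD_EXE by log2 ratios of 5.14 to 7.45 (Car3, at 0 in HFD_sed, taken at the floor of 3 counts), none of which held. Of 6 cell cycle genes (median 2.35), 4 were higher, and 0 of them held without the 1 cycling cell of HFD_EXE.

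HFD_EXE and S use the same HFD_EXE cells again, so their comparison is not independent of the last. Over S, 7.59% of 2041 genes were higher and 6.57% lower past the fold, and 2.45% and 2.5% held. The median over all genes was −0.02. The 10 Treg genes measured had a median of −0.35: Izumo1r was higher, at 384 CPM in HFD_EXE and 72.3 CPM in S, and Capg lower, at 165 and 485 CPM. Ikzf2 was at 1481 and 1497 CPM, and Ctla4 at 823 and 666 CPM, neither past the fold. Of 7 effector genes measured 3 were lower and 0 higher, and of 3 repair genes 1 was lower and 0 higher. Klrg1 had 0 UMIs in HFD_EXE, where 3 counts would be 54.9 CPM, against 289 CPM in S. Il1rl1 was at 18.3 CPM in HFD_EXE and 186 CPM in S, a log2 ratio of −3.35 (−8.69 to −0.78). Maf, a factor of effector Treg cells, was at 494 and 1017 CPM. Tcf7 was higher, at 402 CPM in HFD_EXE and 67.1 CPM in S, a log2 ratio of 2.58 (1.53 to 3.70), and Il7r was higher as well, at 841 and 408 CPM. In Foxp3-negative CD4 T cells Tcf7 was at 312 and 315 CPM, and Il7r at 1214 and 476 CPM. S100a6, a calcium-binding protein, was at 1042 CPM in HFD_EXE and 4074 CPM in S, and Crip1 at 1609 and 4523 CPM. In HFD_EXE a single cell held 49 of 57 S100a6 UMIs, and a single cell 58 of 88 Crip1 UMIs. Without cycling cells the log2 ratios went from −1.97 to −4.36 for S100a6 and from −1.49 to −2.57 for Crip1.

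**Figure D5:**
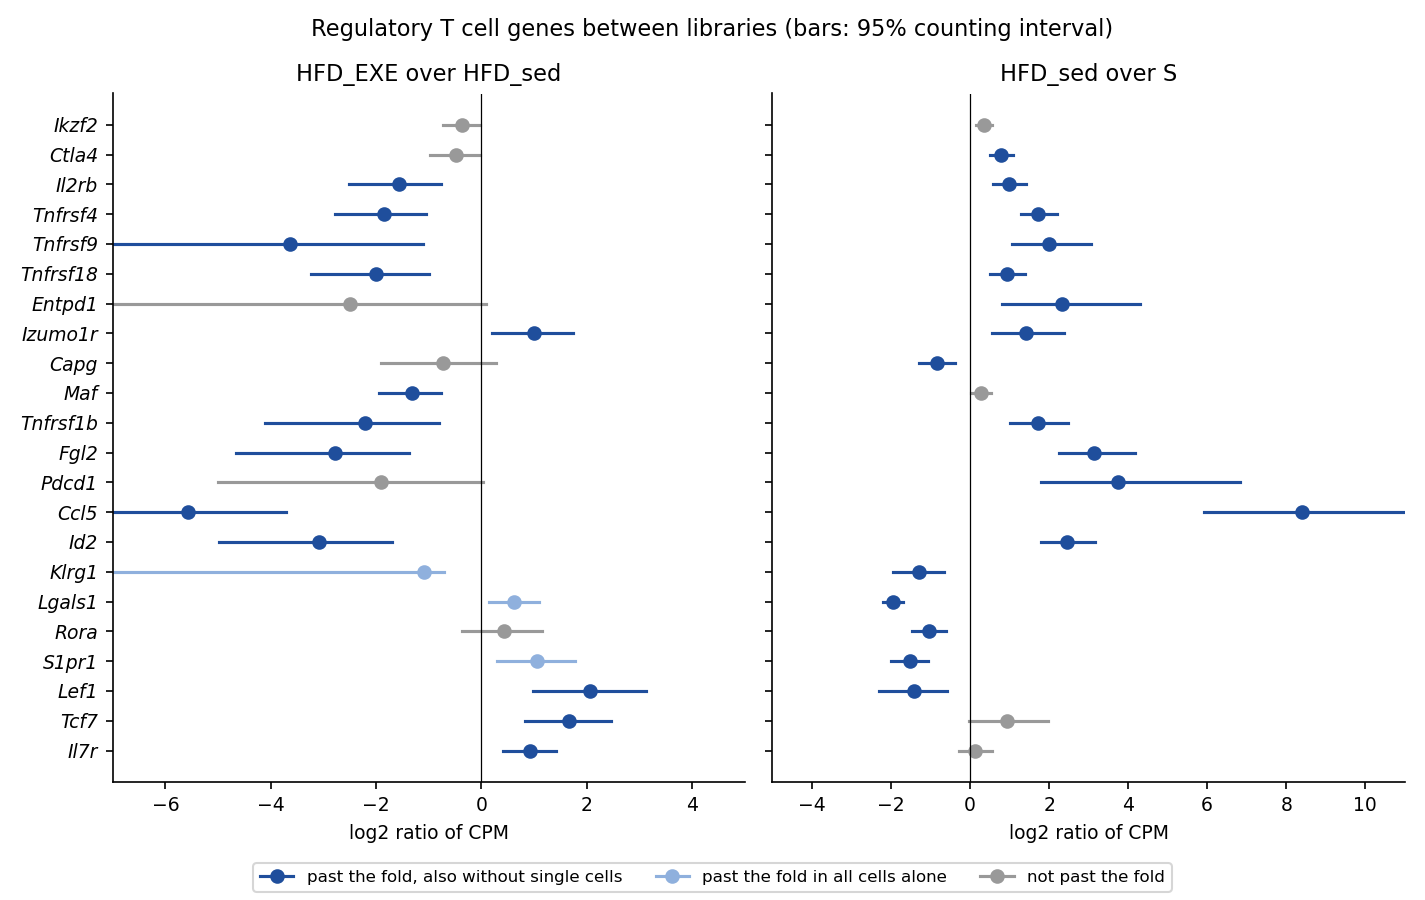
Log2 ratio of CPM in Treg cells for chosen genes, HFD_EXE over HFD_sed on the left and HFD_sed over S on the right, with exact 95% intervals cut at the axis limits. Dark points held, light points were past the fold in all cells only and grey points were not past it. Ccl5 and Fgl2 lie left of 0 for HFD_EXE over HFD_sed and right of 0 for HFD_sed over S.

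The part of other cells' RNA, of depth and of dissociation in the differences between libraries was not tested. Of the 96 Treg cells, 83 held at least 2 UMIs of B cell, neutrophil or endothelial genes. Ighm is counted among these genes, and 77 Treg cells had a UMI of it. In Foxp3-negative CD4 T cells of HFD_sed over S, the medians of 8 heat shock and 12 immediate early genes were 0.24 and 0.83, against 0.13 over all genes. The Treg medians of the same lists were 0.76 and 0.50, against 0.14 over all genes.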

How the data were processed

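The authors deposited a matrix of whole-number UMI counts by gene and barcode, not normalized. Cell Ranger 6.1.2 and build GRCm39 are named in the submitters' processing notes. Counting options were not given in the sources used here. Per the labels' protocols, libraries followed a droplet-based 3′ protocol. Barcodes had been filtered before deposit, since the lowest held 500 UMIs. Counts of the 55357 identifiers were summed over 54456 symbols.

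A cell needed 500 UMIs, 300 detected genes and a mitochondrial share under 15%. This kept 10467, 11068 and 10615 cells of HFD_EXE, HFD_sed and S. Doublets were not removed; removing cells with a Scrublet score over 0.2 (Scanpy 1.11.5) was an alternative. The cells, gene lists and tests were chosen with earlier results of these data known. Sums of counts gave CPM with exact Poisson intervals, shares had Clopper-Pearson intervals, and ratios had conditional binomial intervals, at 95%. UMIs of a gene at 0 in 1 library were set to 3 counts. Summed counts were tested with edgeR 4.0.16 (R 4.3.3), quasi-likelihood, TMM scaling and the library as a term, since both cell groups of a library come from the same capture. Nothing in the labels says that libraries came from separate animals, so the spread between them may be technical in part. DESeq2 1.42.0 was an alternative. Genes of the rule were not tested.

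Besides list genes, the rule for naming genes took the 10 per direction with the largest log2 difference among those past the adjusted p with the same direction in all 3 libraries, and for each pair of libraries the 8 genes per direction with the interval bound farthest from no change, at 100 CPM or more in the higher library. Not every gene that the rule or the lists would name is reported here.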

Additional observations from a re-analysis of the deposited data

Results flagged for a closer look

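Several genes lay past the fold in opposite directions between libraries when Treg cells were set against Foxp3-negative CD4 T cells of the same library. Whether the directions differ was not tested, since each library is 1 sample. Values are log2 ratios of Treg over Foxp3-negative CD4 T cells.

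Fgl2 was at −2.12 in HFD_EXE, 2.12 in HFD_sed and −1.83 in S. Its Treg levels were 73.2, 500 and 56.8 CPM, against 317, 115 and 202 CPM in Foxp3-negative CD4 T cells. Il2rb, a chain of the interleukin-2 receptor, was at −2.05 in HFD_EXE, 0.62 in HFD_sed and −1.001 in S. Ccr2, a chemokine receptor also found on monocytes, was at −1.59 in HFD_EXE and 0.98 in HFD_sed. Jun was at 0.73 in HFD_sed and −0.64 in S. Maf was at −0.87 in HFD_EXE and 0.64 in S. Ier2 was at 1.27 in HFD_EXE and −0.96 in HFD_sed, and Egr1 was at 2.93 in HFD_EXE and −0.997 in S. Egr1 was found in 4 of the 12 HFD_EXE Treg cells. The cell cycle genes Birc5, at 2.11 in HFD_EXE and −1.06 in HFD_sed, and Top2a, at 2.33 in HFD_EXE and −0.85 in HFD_sed, rest in HFD_EXE on its 1 cycling Treg cell.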

How the results depend on the processing

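Shares, counts of calls and list medians were recomputed under other settings, and the cause of each change was not tested. The Treg share of T cells was 0.579%, 1.19% and that of the CD4 gate 2.81%, 8.41% in HFD_EXE and HFD_sed with at least 2 Foxp3 UMIs; 0.166%, 1.32% and 1.67%, 12.2% after thinning; 0%, 0.719% and 0%, 6.13% with cells of at least 2 UMIs of B cell, neutrophil or endothelial genes left out; and 0.695%, 0.966% and 3.41%, 7.09% where a Cd4 UMI was required. In S the share of T cells was 4.03% with no exclusion of other lineages. By edgeR, leaving out 1 library gave 34 to 90 genes higher and 45 to 95 lower. Without the library as a term, that is with no replicate block, 15 were higher and 17 lower. Of the 43 called genes followed, 25 then no longer passed. Among them were Ctla4, Tnfrsf4, Tnfrsf9, Capg, Dusp4, Icos, Nt5e, Lrrc32, Klrb1c and Cd160. No pairing across libraries was possible, since the 3 share no replicate number. Leaving out other-lineage cells left 10 Treg cells of HFD_sed, 3 of S and 0 of HFD_EXE, and so no list value for HFD_EXE. Thinned cells gave 15 and 18, Treg cells with a Cd4 UMI 105 and 107, the cells without the 9 of mixed RNA 91 and 106, and DESeq2 39 and 32. By DESeq2, 11 of the 43 genes followed lost their call, Lgals1, Lrrc32, Tnfrsf1b, Nkg7 and Hspa1a among them. Testing all genes gave 146 lower and dropping the Cd4 requirement 126 lower. Over S, the HFD_sed medians that moved or reversed were those of repair genes (1.002 at 10 UMIs, −0.95 at 50, −0.86 thinned, 1.02 without other-lineage cells, −0.39 without cycling cells), resting genes (−0.88 thinned, −1.57 without other-lineage cells), interferon genes (−2.39) and receptor response genes (−0.0892), both without other-lineage cells. Effector genes were at 0.030 for HFD_EXE over HFD_sed with at least 2 Foxp3 UMIs. For HFD_EXE over S, resting genes were at −0.0663 with 50 UMIs and −0.51 thinned, and receptor response genes at −0.0723 thinned and −0.61 with a Cd4 UMI. Without the top cell, HFD_sed over S turned for Il17a (0.91), H2ac8 (0.30) and Ccr9 (0.13), and HFD_EXE over S for Phyh (−0.81), Cat (−0.077), H1f5 (0.30) and Ccr9 (1.32). For HFD_EXE over S, Cat was at −0.26 without mixed cells and Egr1 at −2.17 with a Cd4 UMI. Selenop was at 0.45 for HFD_EXE over HFD_sed without Scrublet doublets. The settings on a Cd4 UMI, mixed cells, cycling cells and the top cell were chosen after seeing the data.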
